A study of Sus scrofa with 8 samples.

Results

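The proteasome subunit genes were followed in livers of 2 young sows (180 days of age) and 2 old sows (8 years of age) of the Chinese indigenous Yanan breed. They were the rows of the mRNA table whose Ensembl identifier maps to a pig symbol of the families PSMA, PSMB, PSMC, PSMD, PSME, PSMF or PSMG followed by a number. This rule found 28 genes among the 21607 listed mRNA identifiers, of which 11654 have a symbol. The immunoproteasome genes PSMB8, PSMB9, PSME1 and PSME2, 4 of the 28, are described apart from the other 24. Of 48 proteasome symbols looked for, 20 were matched to no row and were not analysed here, among them the catalytic subunits PSMB5 and PSMB6 and the immune subunit PSMB10.

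Each sow gave 1 directional, rRNA-depleted RNA-seq library of whole liver. The 4 sows were healthy and unrelated and were slaughtered after a night without food. The young sows had not given birth and the old sows were culled after years of breeding, so age and reproductive history cannot be told apart. The listed mRNAs held 37555696 and 37125091 reads in young sows, against 22482245 and 24866406 in old sows. The deposited values are CPM, read counts scaled to a library total that is not stated, with no correction for gene length, so levels are compared between livers and not between genes. ALB, the plasma protein made by hepatocytes, stood between 16534 and 35205 CPM in every liver.

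The proteasome is the barrel-shaped protease that degrades proteins tagged with ubiquitin. Its 20S core stacks rings of alpha subunits (PSMA), which form the gate, around rings of beta subunits (PSMB), some of which carry the active sites. The 19S cap, built from ATPases (PSMC) and other subunits (PSMD), binds ubiquitin chains, unfolds the substrate and threads it into the core. Interferon induces PSMB8, PSMB9 and PSMB10, which replace the catalytic beta subunits in new particles, and the 11S activator subunits PSME1 and PSME2. The immunoproteasome so formed supplies peptides for MHC class I molecules. It is abundant in immune cells and can be induced in hepatocytes.

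The clearest pattern was not shared by the old livers. As deposited, PSME1, PSME2, PSMA1, PSMA3, PSMA5 and the 19S gene PSMD4 were highest in old replicate 1 and lowest in old replicate 2. They are 6 of the 25 proteasome genes tested, and 6.85% of the mRNAs with a mean of at least 1 CPM had this pattern. After TMM scaling PSME1 and PSMD4 were no longer below both young livers in old replicate 2. PSMB9 was also highest in old replicate 1. A small set of other genes (PSMB1, PSMG3, PSMC6 and PSME4) was lower in both old livers than in both young livers under each of 3 scalings. These are 4 of the 25 proteasome genes tested, and 24.0% of the mRNAs with a mean of at least 1 CPM were lower in this way, so the count does not exceed the background. No proteasome gene passed the threshold for differential expression between old and young livers, and 0% of all mRNAs tested did.

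PSME2 (ENSSSCG00000002004), one of the paired subunits of the 11S activator, had 40.6 and 40.2 CPM in the young livers, while old replicate 1 had 93.0 and old replicate 2 had 23.1. The young livers were nearly equal, and the old livers lay on either side of them. Old replicate 1 was 2.30 times and old replicate 2 was 0.57 times the mean of the young livers. The 4 values rest on 3729, 3482, 5722 and 1657 reads. Old minus young was 0.20 on the log2(CPM + 1) scale, on which the change of a gene with low values is understated (standard error 0.78, adjusted p = 0.938, limma).

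PSME1 (ENSSSCG00000002006), its partner, had 25.3 and 24.8 CPM in young sows, against 35.2 and 21.7 in old sows. The order of the livers was that of PSME2, with a smaller distance between the old livers (1.62 times, against 4.03 times for PSME2). Its fitted difference was 0.14 (standard error 0.28, adjusted p = 0.864, limma). IRF9, an interferon signalling factor next to PSME2 in the RefSeq gene order, had 7.27 and 15.9 CPM in young sows, against 29.4 and 10.8 in old sows, and EMC9 between PSME1 and PSME2 had between 1.202 and 1.851 CPM.

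PSMB9 (ENSSSCG00000001463), the immune beta subunit also called LMP2, was listed at 0 in young replicate 1 and at 1.76 CPM in young replicate 2, while old replicate 1 had 15.6 and old replicate 2 had 1.38. These values correspond to 0, 152, 962 and 99 reads, and a count of 0 allows up to 3 reads, or 0.0327 CPM, in young replicate 1. Old replicate 1 was 8.90 times young replicate 2, and old replicate 2 lay between the young livers. The fitted difference of 1.92 had a standard error of 1.24 (adjusted p = 0.551, limma). It was 0.52 without old replicate 1 and 3.32 without old replicate 2.

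PSMB8 (ENSSSCG00000026951), the immune subunit LMP7, was listed at 0 in 3 livers and at 2 reads in old replicate 1. That is no more than the 3 reads that a count of 0 allows. PSMB8 was not tested, because the fit needed 2 or more libraries above 0, and no change can be given for it. In the RefSeq gene order of Sscrofa11.1, PSMB8 lies between TAP2 and TAP1 and PSMB9 follows TAP1. TAP1 and TAP2 form the transporter that carries proteasome products to MHC class I molecules. TAP1 had 1.24 and 0.832 CPM in young sows, 11.3 in old replicate 1 but 1.70 in old replicate 2. TAP2 had 0 and 0.520 in young sows, against 12.8 and 0.487 in old sows. Reads were thus listed for the neighbours of PSMB8 in old replicate 1, whereas PSMB8 itself had 2 reads. TAP2, like PSMB9, was at 0 in young replicate 1. Why these genes were listed at 0 was not tested.

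Old replicate 1 was also the liver with high interferon-stimulated genes. Of 21 listed type I interferon targets, all 21 exceeded both young livers in old replicate 1. In old replicate 2, 6 exceeded them and 9 were below both. Of the mRNAs with a mean of at least 1 CPM, 31.3% exceeded the young pair in old replicate 1. For old replicate 2 the shares were 28.1% above and 47.1% below, so the list's counts in old replicate 2 were near the background. The summed level of the list was 82.1 and 99.4 CPM in young sows, 2036 in old replicate 1 but 74.3 in old replicate 2. RSAD2, an antiviral enzyme, had 0.664 and 1.54 CPM in young sows, against 618 and 2.28 in old sows. ZBP1 (1.88, 1.51, 79.7 and 5.51 CPM), IFIT1 (2.85, 4.34, 231 and 4.66) and IRF7 (0.544, 0.936, 63.0 and 1.92), in the same order of livers, were also far highest in old replicate 1.

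Of 13 genes of interferon-gamma signalling, 11 exceeded both young livers in old replicate 1, and 3 did in old replicate 2. Some of the 13 had a mean under 1 CPM, so the background here is all 16898 mRNAs tested. Of these, 6005 exceeded both young livers in old replicate 1 and 5857 did in old replicate 2. GBP2 (1.27, 1.85, 14.4 and 1.17 CPM), a guanylate-binding protein, was highest in old replicate 1 and lowest in old replicate 2, as PSME2 was, and IDO1 (0.152, 0.012, 2.08 and 0.070) was also highest in old replicate 1. IRF1, a direct activator of the immune subunit genes, did not stand apart, with 4.91 and 7.68 CPM in young sows, against 5.66 and 4.98 in old sows. CIITA, the activator of MHC class II genes, was higher in both old livers (1.58 and 1.45 CPM, against 0.011 and 0.116), with a fitted difference of 1.24 (standard error 0.12, adjusted p = 0.213, limma).

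Of 9 genes of peptide loading and related class I partners, 7 exceeded both young livers in old replicate 1 (background 31.3%), and 3 did in old replicate 2 (background 28.1%). UBE2L6, the conjugating enzyme of ISG15, had 3.04 and 4.96 CPM in young sows, against 277 and 4.86 in old sows. UBD, a ubiquitin-like protein that delivers substrates to the proteasome, had 6.64 and 8.09 CPM in young sows, 20.7 in old replicate 1 but 8.56 in old replicate 2. ERAP1, which trims peptides for class I molecules, had 9.05 and 9.95 CPM in young sows, 14.8 in old replicate 1 but 3.59 in old replicate 2, and PDIA3 had 68.6 and 61.9, then 76.3 and 38.9. In both genes, as in PSME2, old replicate 1 was the highest liver and old replicate 2 the lowest. TAPBP, which holds class I molecules to the transporter, was instead higher in both old livers, with 2.66 and 1.98 CPM in young sows, against 4.62 and 4.30 in old sows (difference 0.73, standard error 0.16, adjusted p = 0.247, limma). It was the single gene of the list with an unadjusted p-value under 0.05. CALR and CANX, chaperones of class I folding, had fitted differences of -0.12 and -0.23.

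**Figure D1:**
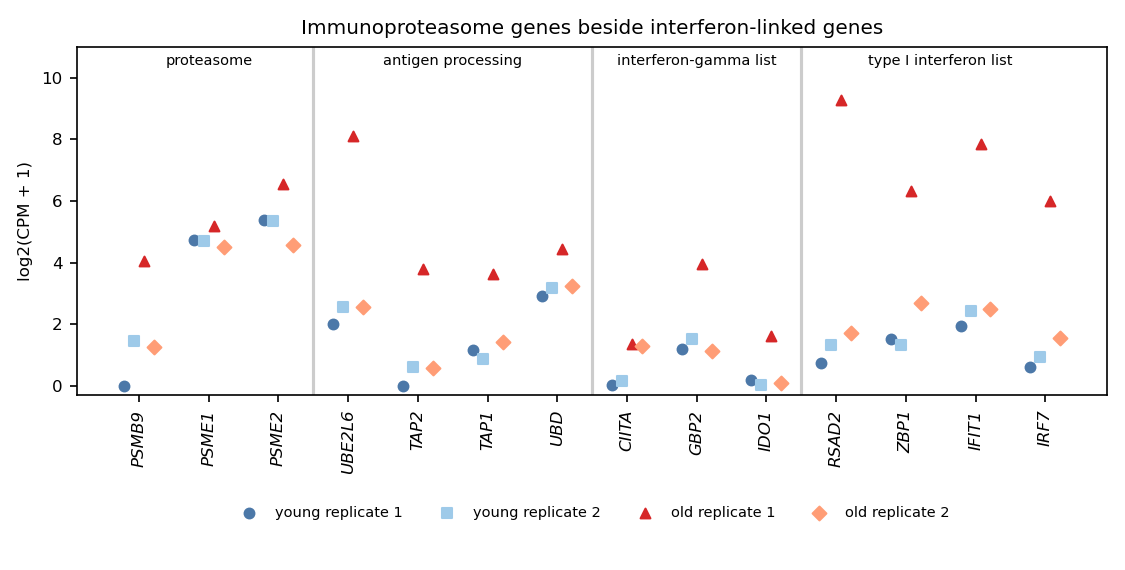
Levels, as log2(CPM + 1), of the 3 immunoproteasome genes tested and of 3 or 4 of the genes with the largest fitted difference in each of 3 interferon-linked lists, with 1 point per liver. Old replicate 1 is the highest liver for all of these genes, CIITA by the smallest margin, while old replicate 2 lies near the young livers for most.

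In whole liver, more cells of a type and more RNA per cell cannot be told apart, and leukocytes express the immunoproteasome, so leukocyte markers are given beside these genes. The summed level of 5 general leukocyte genes was 36.3 and 55.7 CPM in young sows, against 45.1 and 43.0 in old sows. These sums of the old livers lay between those of the young livers. Of the 5 genes, 2 (PTPRC and CD48) were lower in both old livers than in both young livers as deposited, and 0 were higher. After TMM scaling 0 were lower and 1 was higher. The 12 T and NK cell identifiers, 2 of them for GZMA, summed to 24.9 and 39.3 CPM in young sows, against 44.8 and 27.9 in old sows. GNLY was a large part of each sum (9.15 and 21.2 CPM in young, 18.85 and 9.86 in old sows). Of the 12 identifiers, 6 were higher in both old livers than in both young livers, and 2 were lower. Of all 16898 mRNAs tested, 4119 were higher and 4219 lower in this way. GZMA was counted in both directions. Its identifier counted as higher was near the floor, with 0 and 0 CPM in young sows, against 0.065 and 0.084 in old sows. The identifier counted as lower had 3.31 and 3.33 in young sows, against 2.08 and 1.34 in old sows. The 6 macrophage genes summed to 238 and 260 CPM in young sows, against 345 and 379 in old sows, with C1QA the largest part of each sum. Of these 6 genes, 4 were higher in both old livers than in both young livers, and MSR1 was lower (6.04 and 6.53 against 4.68 and 4.16). The 5 B and plasma cell genes summed to 3.27 and 5.73 in young sows, against 16.1 and 6.16 in old sows. No listed gene of these 4 marker lists was at 0 in all livers. The part of leukocytes in the immunoproteasome values was not tested.

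Over the 3 immunoproteasome genes tested, the median old minus young difference was 0.20, against -0.15 over the 9790 mRNAs with a mean of at least 1 CPM, a level that all 25 proteasome genes tested also reached. It was -0.20 without old replicate 1 and 1.18 without old replicate 2. None of the 3 separated the age groups in the values as deposited.

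The alpha ring, which gates the core, was represented by PSMA1, PSMA3 and PSMA5. PSMA5 had 17.0 and 15.8 CPM in young sows, 32.8 in old replicate 1 but 7.28 in old replicate 2. Old replicate 1 was 4.51 times old replicate 2, the widest ratio between the old livers of any proteasome gene tested other than PSMB9. PSMA1 had 27.6 and 24.9 CPM in young sows, against 42.1 and 16.8 in old sows. PSMA3 had 10.169 and 10.305 in young sows, against 11.1 and 4.62 in old sows. For all 3, old replicate 1 exceeded both young livers and old replicate 2 was below both, while the young livers stayed close to each other. With the old livers on opposite sides of the young livers, the fitted differences were 0.03 for PSMA1, -0.06 for PSMA5 and -0.44 for PSMA3, with standard errors of 0.51, 0.80 and 0.45 and adjusted p-values of at least 0.701 (limma).

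Over the 25 proteasome genes tested, 6 had old replicate 1 above, and old replicate 2 below, both young livers, where 6.85% of the mRNAs with a mean of at least 1 CPM were. They were PSMA1, PSMA3, PSMA5, PSME1, PSME2 and PSMD4. With the TMM factors of edgeR, which scale each library to the bulk of its genes, there were also 6, with PSMC2 and PSMC3 in place of PSME1 and PSMD4. Old replicate 1 was above old replicate 2 in 17 of the 25 genes, against 50.3% of those mRNAs. Each old liver is a single animal, so the difference between the old livers has no test.

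**Figure D2:**
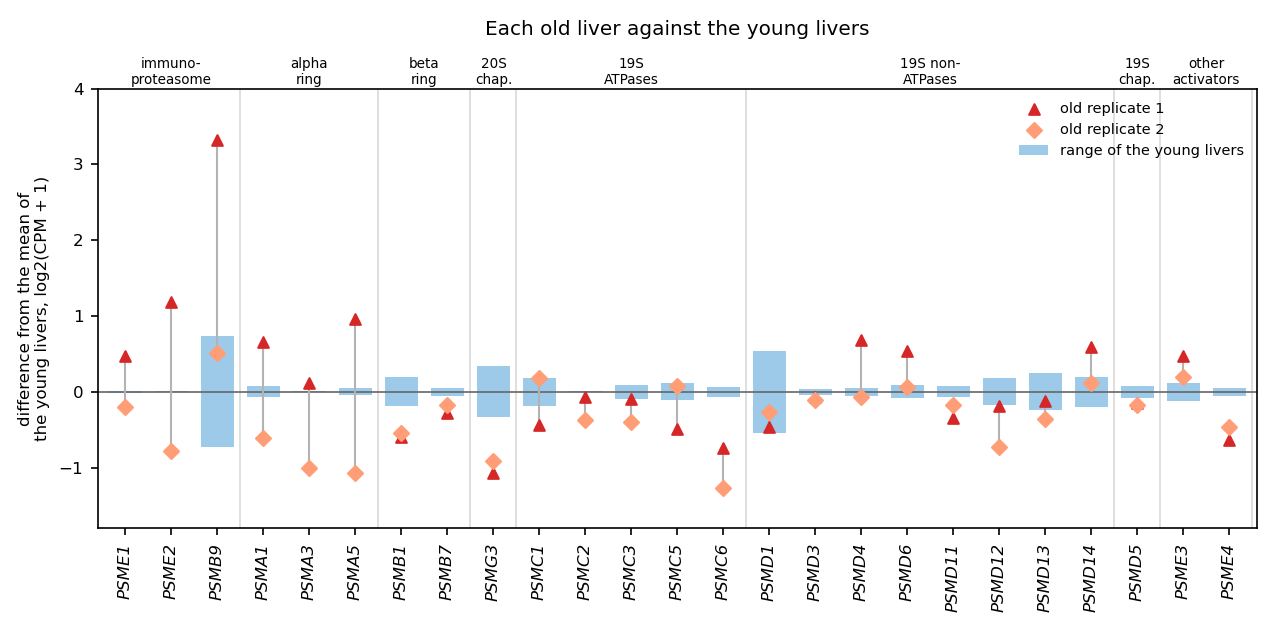
Difference of each old liver from the mean of the young livers on the log2(CPM + 1) scale, for the 25 proteasome genes tested, grouped by role, with bars for the range of the young livers. Old replicate 1 lies above 0 and old replicate 2 below it for PSME1, PSME2, PSMA1, PSMA3, PSMA5 and PSMD4. The reverse holds for PSMC1 and PSMC5. Both points lie below 0 for most of the other genes, PSMB1, PSMG3, PSMC6 and PSME4 among them.

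**Figure D3:**
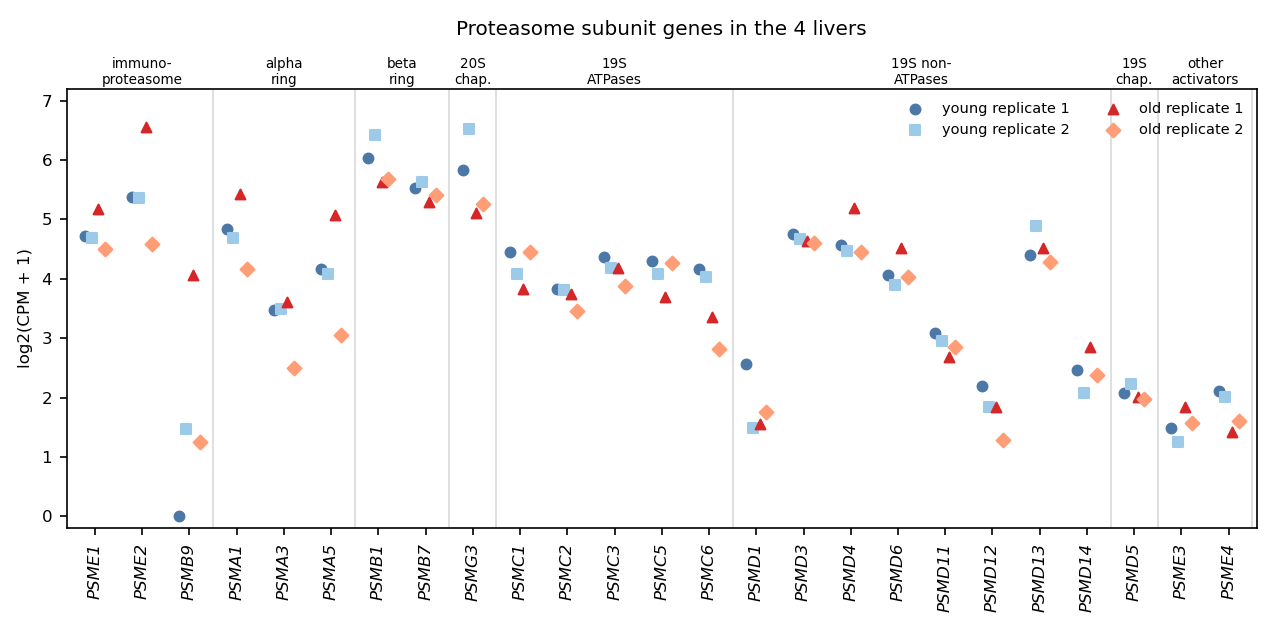
Level of each of the 25 proteasome genes tested in the 4 livers as log2(CPM + 1), with 1 point per liver. The values are not corrected for gene length, so heights compare livers within a gene, and the young livers lie closest together beside widely separated old livers for PSME2, PSMA3 and PSMA5.

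The constitutive beta ring was represented by PSMB1, a structural subunit, and PSMB7, which carries the trypsin-like active site. PSMB1 (ENSSSCG00000027257) had 64.4 and 84.4 CPM in young sows, against 48.6 and 50.1 in old sows. PSMB7 had 45.1 and 48.4 in young sows, against 38.2 and 41.4 in old sows. For both genes the age groups did not overlap, and old replicate 1 lay on the low side here, unlike for the alpha ring and the immune subunits. The difference was -0.57 for PSMB1 (standard error 0.19, adjusted p = 0.315, limma) and -0.23 for PSMB7 (standard error 0.12, adjusted p = 0.480, limma). After TMM scaling the groups of PSMB7 overlapped and its difference was -0.03, whereas PSMB1 still had no overlap and a difference of -0.37.

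PSMG3 (ENSSSCG00000007556), a chaperone that helps the alpha ring to assemble, had 56.2 and 90.4 CPM in young sows, against 33.3 and 37.5 in old sows. The old livers were close to each other and the young livers were not. The mean of the old livers was 0.48 times that of the young livers, a difference of -0.99 (standard error 0.29, adjusted p = 0.289, limma). Leaving out 1 library at a time gave between -1.33 and -0.65.

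The 19S ATPases unfold substrates and open the gate of the core, and 5 of them were listed. PSMC6 (ENSSSCG00000005038) had 16.9 and 15.3 CPM in young sows, against 9.20 and 6.08 in old sows. This was the lowest ratio of old to young livers among the proteasome genes tested (0.47), with a difference of -1.01 (standard error 0.24, 95% interval -1.73 to -0.28, adjusted p = 0.254, limma). PSMC1 had 20.9 and 16.0 CPM in young sows, against 13.2 and 20.9 in old sows. PSMC5 had a like order, with 18.7 and 15.8 in young sows, against 12.0 and 18.2 in old sows. In PSMC1 and PSMC5 old replicate 1 was the lowest liver and old replicate 2 was close to young replicate 1. PSMC2 (13.2 and 13.0 CPM in young, 12.4 and 9.93 in old livers) and PSMC3 (19.6 and 17.2 in young, 17.1 and 13.7 in old livers) had age groups that did not overlap as deposited. After TMM scaling or median centring the age groups of both genes overlapped. All 5 ATPases were below both young livers in old replicate 1, where 45.8% of the mRNAs with a mean of at least 1 CPM were, and after TMM scaling 3 of the 5 were.

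Of the 8 other 19S subunits listed, 3 were higher and 5 lower in old livers on average, and after TMM scaling 4 and 4. PSMD14, the enzyme that strips ubiquitin chains from substrates, had 4.51 and 3.20 CPM in young sows, against 6.26 and 4.19 in old sows. PSMD4, a ubiquitin receptor, had 22.7 and 21.2 in young sows, against 35.7 and 20.9 in old sows, and PSMD6, a lid subunit, had 15.8 and 13.9 against 21.9 and 15.4. The fitted differences of these 3 genes lay between 0.30 and 0.35, and in each the higher old liver was old replicate 1. After TMM scaling both old livers were above both young livers for all 3, which was not so in the values as deposited.

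PSMD1, a scaffold of the cap, differed most between the young livers among the 19S subunits, with 4.92 and 1.79 CPM, and had 1.95 and 2.39 in the old livers. PSMD12, a lid subunit, had 3.57 and 2.58 in young sows, against 2.57 and 1.43 in old sows, a difference of -0.46 (standard error 0.28, adjusted p = 0.530, limma). PSMD3, another lid subunit, had nearly equal values, with 25.9 and 24.4 CPM in young sows, against 23.952 and 23.332 in old sows. Its difference was -0.09 with a 95% interval of -0.43 to 0.26 (limma). PSMD3 shows how much the scaling matters for small differences, since its age groups did not overlap in either direction: old livers were lower in the values as deposited and higher after TMM scaling. PSMD11, a lid subunit, had 7.53 and 6.71 CPM in young sows, against 5.41 and 6.22 in old sows. Its age groups did not overlap as deposited but did after TMM scaling. PSMD13, also of the lid, had 20.1 and 28.6 against 21.9 and 18.5. PSMD5, an assembly chaperone of the cap, had 3.20 and 3.69 CPM in young sows, against 3.02 and 2.94 in old sows.

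The activators outside the immune set differed in direction. PSME4 (ENSSSCG00000008412), also called PA200, binds the core in the nucleus. It had 3.33 and 3.04 CPM in young sows, against 1.69 and 2.03 in old sows. The spread within each age group was small beside the distance between them, and the difference was -0.55 (standard error 0.13, adjusted p = 0.255, limma), from 306 and 263 reads in young sows, against 104 and 146 in old sows. PSME3 (ENSSSCG00000017385), the nuclear relative of PSME1 and PSME2, had 1.82 and 1.39 CPM in young sows, against 2.60 and 1.98 in old sows, a difference of 0.34 (standard error 0.18, adjusted p = 0.475, limma). AOC2, next to PSME3 in the RefSeq gene order, had 1.79 and 1.75 CPM in young sows, against 8.73 and 4.87 in old sows. Counting by strand is not stated, and whether AOC2 and PSME3 share reads was not tested. PSMA8, of the testis, and PSMB11, of the thymus, were listed at 0 in all 4 livers.

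In the fit over 16898 mRNAs, none of the 25 proteasome genes was called (adjusted p-value under 0.05, absolute log2 difference above 1), and 0% of all mRNAs were. In limma 4 of the 25 had an unadjusted p-value under 0.05, as had 2654 of all 16898 mRNAs. These 4, PSMC6, PSMG3, PSMB1 and PSME4, were all lower in old livers. Among the mRNAs with a mean of at least 1 CPM, 14.0% were lower and 7.69% higher at that p-value. Both edgeR tests on the recovered whole reads called 0 proteasome genes, and 0 had an unadjusted p-value under 0.05 in either. The exact test called 534 mRNAs in all and the quasi-likelihood test none (2474 at an unadjusted p-value under 0.05).

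On average, 17 of the 25 genes were lower in old livers, and 60.0% of the mRNAs with a mean of at least 1 CPM were too. The age groups did not overlap in 11 genes that were lower and 1 that was higher, against 32.9% and 17.8% of those mRNAs. After TMM scaling, 4 lower and 5 higher genes had no overlap, against 24.4% and 23.7%. PSMB1, PSMG3, PSMC6 and PSME4 (lower) and PSME3 (higher) kept theirs under all 3 scalings, against 24.0% (lower) and 17.8% (higher) of those mRNAs. The median over the 22 genes outside the immune set was -0.22, and over the mRNAs with a mean of at least 1 CPM -0.15. After TMM scaling these medians were -0.03 and 0.00087, and with each library centred on its median gene -0.11 and -0.04. In old replicate 1, 10 of the 25 genes were above and 13 below both young livers, against 31.3% and 45.8% of those mRNAs. In old replicate 2, 2 were above and 18 below, against 28.1% and 47.1%.

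**Figure D4:**
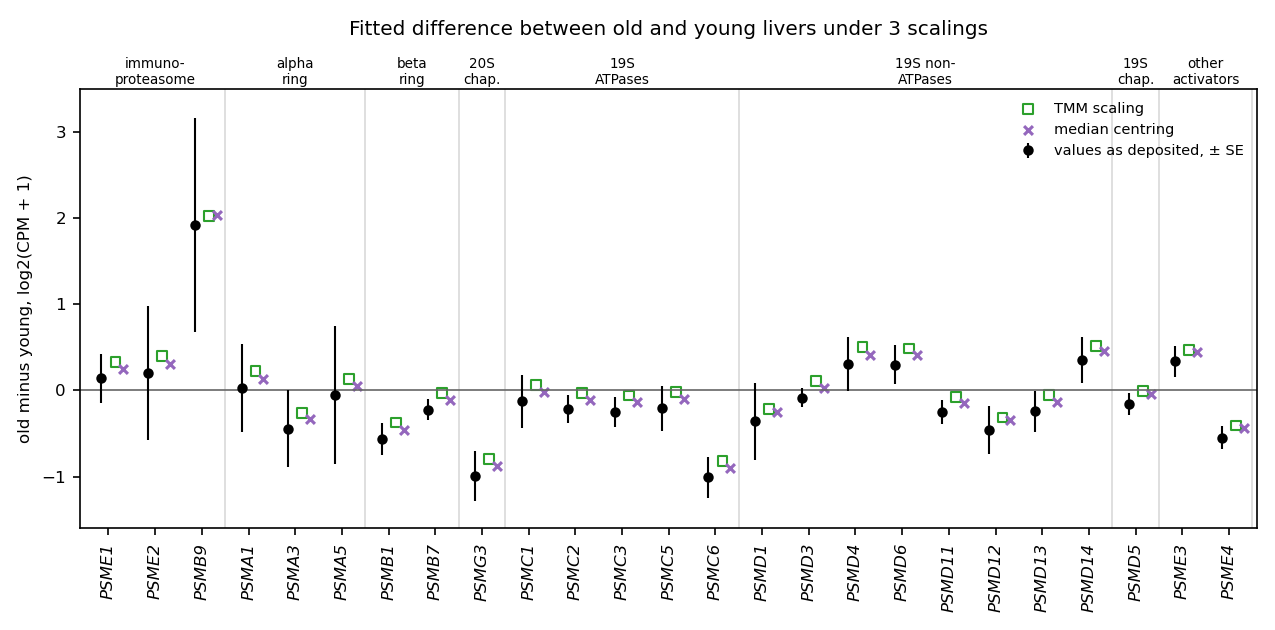
Fitted old minus young difference of the 25 proteasome genes tested on the log2(CPM + 1) scale, as deposited (filled points, bars for the standard error of limma), after TMM scaling (squares) and after centring on the median gene (crosses). Both other scalings move each gene upward, which takes PSMA5, PSMC1 and PSMD3 across 0 with TMM, while PSMG3, PSMC6, PSMB1 and PSME4 remain below it.

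Of 20 proteasome partners without a PSM name, 12 were lower and 8 higher in old livers, with a median difference of -0.20. Of all 16898 mRNAs tested, 8942 were lower. Of those with a mean of at least 1 CPM, 60.0% were lower and the median was -0.15, so the count was near the background. After TMM scaling the median of the 20 partners was -0.05. TXNL1, a thioredoxin-like protein bound to the cap, had 25.8 and 31.8 CPM in young sows, against 16.6 and 17.9 in old sows, a difference of -0.70 (adjusted p = 0.251, limma). FAF1, an adaptor of the unfoldase VCP, had 2.80 and 4.34 against 0.780 and 1.82. NPLOC4, another adaptor of VCP, had 3.74 and 4.12 in young sows, against 7.46 and 5.92 in old sows, a difference of 0.63 (adjusted p = 0.264, limma). UCHL5, a deubiquitinase of the cap, had 10.8 and 4.81 against 4.32 and 4.54. NFE2L1, the transcription factor that induces proteasome genes when the proteasome is impaired, had 5.46 and 7.33 CPM in young sows, against 9.17 and 8.03 in old sows. Its age groups did not overlap, and its difference of 0.39 had an adjusted p-value of 0.449 (limma).

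Of 10 ubiquitin genes and ubiquitin-activating or conjugating enzymes, 5 were higher and 5 lower in old livers. UBE2J1, a conjugating enzyme of the endoplasmic reticulum, had 4.45 and 4.51 CPM in young sows, against 1.92 and 1.73 in old sows, a difference of -0.96 (standard error 0.11, adjusted p = 0.213, limma). UBE2H had 7.08 and 11.1 against 4.32 and 3.79, and the activating enzyme UBA6 had 1.68 and 1.79 against 1.06 and 0.766. UBE2G2, which serves the degradation of proteins from the endoplasmic reticulum, had 1.74 and 2.99 CPM in young sows, against 4.47 and 5.61 in old sows. The ubiquitin gene UBB overlapped between the age groups, with 918 and 1220 CPM in the young and 1360 and 863 in the old livers. No gene of either list passed the threshold.

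The 12 listed hepatocyte genes summed to 52944 and 59116 CPM in young sows, 36158 in old replicate 1 and 43878 in old replicate 2. The sum was below both young livers in each old liver. The summed CPM of all listed mRNAs was also lower, with 408898 and 428910 in young sows, against 365330 and 346173 in old sows. On average 9 of the 12 genes were lower in old livers, where 60.0% of the mRNAs with a mean of at least 1 CPM were. After TMM scaling 9 were still lower, and the median difference of the list moved from -0.58 to -0.38. The part of a different cell make-up in the values of the proteasome genes was not tested.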

How the data were processed

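RNA-seq of 2 young and 2 old livers was used. The deposited CPM values come from the authors, whose notes name TopHat2 2.0.14 for alignment to Sscrofa10.2, StringTie 1.2.3 for assembly and Salmon 0.6.0 for values they call TPM. As deposited, all values of up to 1000 reads were whole multiples of 1 step per library (tolerance 0.0006 CPM), so no gene length enters them. Whole reads were recovered with these steps, and 1 read was worth between 0.0109 and 0.0162 CPM. The 95% intervals come from the standard error of limma, which rests on the spread between sows of an age group. Read limits cover counting error only.

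Symbols came from an Ensembl table. Old and young livers were compared with limma 3.58.1 (R 4.3.3) on log2(CPM + 1), over mRNAs with 2 or more libraries above 0, and p-values were adjusted by Benjamini-Hochberg. Calls needed an adjusted p-value under 0.05 and an absolute log2 difference above 1. The exact and quasi-likelihood tests of edgeR 4.0.16 were run on whole reads. Genes named are all members of each role, and of each other list up to 4 with the largest difference, and marker lists are given as sums. PSMD6, PSMD13, AOC2, IRF9, EMC9, ALB, IRF1, NFE2L1, UBB, CALR, CANX, PDIA3, ERAP1, TAPBP, C1QA and MSR1 were named after their values were seen. So were the markers PTPRC, CD48, GNLY and GZMA. The members and lists were chosen with earlier results of these data known. Python 3.11.15 with pandas 2.3.3 and matplotlib 3.10.9 was used. LncRNAs, circRNAs and miRNAs were not used here. Some genes of these lists are not reported here.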

Additional observations from a re-analysis of the deposited data

How the results depend on the processing

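No proteasome gene was called under any alternative run, among them pseudocounts of 0.1 and 0.5, no filter, a variance trend and the edgeR tests. Over all mRNAs, 2 were called with a mean of at least 1 CPM required, 1 with median centring and 534 with the exact test of edgeR. With the replicate number as a block, 0 mRNAs and 0 proteasome genes were called. The numbers only name the sows (correlation of their deviations 0.09), so they pair no samples. The median difference of the genes outside the immune set moved from -0.22 to -0.032 with TMM scaling and to -0.11 with median centring, for which the median of all mRNAs moved from -0.02 to 0.09. With 1 library left out it lay between -0.31, with old replicate 1 out, and -0.13, with old replicate 2 out, and the immunoproteasome median lay between -0.20 and 1.18. Counts of calls then stayed at 0. The lone library left in an age group was assumed to vary like the pair in the other group. The ratio of immune to constitutive catalytic subunits was planned but not computed, as PSMB5, PSMB6 and PSMB10 were matched to no row. With 2 sows per group, an exact permutation test of a single value cannot fall below p = 0.333.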
